A study of Homo sapiens with 2 samples.

Results

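The genes described here are 55 genes of the splicing machinery, chosen by symbol: 13 SR proteins and their close relatives, 18 heterogeneous nuclear ribonucleoproteins (hnRNPs) with PTBP1 among them, 21 genes of the spliceosome core, and PRMT1, PRMT5 and RBM39. A gene was counted as having a peak when its exact symbol stood in a gene-and-feature entry of the annotated peak table. By this rule 18 of the 55 genes had an entry, from 21 of the 1900 peaks in the table. The rule used gene names and no measured value, but the gene set was chosen with earlier results of these data known, so the shares below are a description of that set.

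The peaks came from ChIP-seq of CAL27 cells, an established tongue carcinoma line, infected with lentivirus to express the transcription factor KLF7 with a myc tag. Chromatin precipitated with the anti-MYC antibody D3N8F gave 1 ChIP library, and the same formaldehyde-fixed chromatin without antibody gave 1 input library. Both libraries carried myc-KLF7, neither was replicated, and no library of cells without the tagged protein was used here. A peak's q-value therefore compares DNA precipitated with the anti-MYC antibody with input DNA, and tagged KLF7 was present at the level the virus gave it. The data hold DNA only, so neither the markers of the cell line nor the RNA level of any splicing gene could be checked. Binding by tagged KLF7 and any other source of precipitated DNA cannot be told apart in a single pair.

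Pre-mRNA splicing is carried out by the spliceosome, built on small nuclear RNAs that carry a ring of Sm proteins, with U2AF and the SF3A and SF3B complexes choosing the branch site and the end of the intron. SR proteins bind exonic enhancers and recruit this machinery, while hnRNPs coat the nascent transcript and often repress nearby splice sites. PRMT5 and PRMT1 are arginine methyltransferases that modify Sm proteins and RNA-binding proteins. KLF7 belongs to the Krüppel-like zinc finger family, whose members bind GC-rich boxes and CACCC boxes.

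Sequence under the peaks is shown first, because the motifs and the position of these peaks are described from it. All sequences are GRCh38, read 5′ to 3′ on the strand of the gene. The first set holds the 4 peaks with the palindrome CACGTG, known as an E-box, within 100 bp of the summit, and the E-box nearest the summit is in capitals.
SRSF6 (chr20:43458276-43458331, plus strand): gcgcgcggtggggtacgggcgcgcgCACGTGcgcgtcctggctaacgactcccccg
U2AF2 (chr19:55655372-55655427, plus strand): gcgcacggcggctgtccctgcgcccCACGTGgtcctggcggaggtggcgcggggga
HNRNPF (chr10:43407862-43407917, minus strand): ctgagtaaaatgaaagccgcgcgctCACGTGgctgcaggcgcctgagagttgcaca
HNRNPU (chr1:244862980-244863009, minus strand): ctcttcgggataCACGTGggcttcgggcct

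The second set shows the GC box GGGCGG, in capitals, in a promoter peak (PTBP1), an intron peak (SRSF10) and the weakest peak (SRSF7). The SRSF7 stretch begins at the start codon of the gene, and its GC box lies 12 bases after the first base of that codon. From the summit, the centres of the printed boxes lie at 21.5 bp (PTBP1), 20.5 bp (SRSF10) and -97.5 bp (SRSF7), negative upstream. The SRSF7 box is thus at the edge of the 100 bp searched, and its stretch does not reach the summit.
PTBP1 (chr19:797013-797068, plus strand): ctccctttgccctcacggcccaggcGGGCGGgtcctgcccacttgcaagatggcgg
SRSF10 (chr1:23979984-23980039, minus strand): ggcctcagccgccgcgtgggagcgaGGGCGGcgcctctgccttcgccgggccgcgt
SRSF7 (chr2:38751227-38751256, minus strand): atgtcgcgttacGGGCGGtacggaggaggt

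The third set shows the summits of the strongest peaks by fold enrichment, with the summit base in capitals. In SNRPD1 the summit is the base before the start codon.
SNRPD1 (chr18:21612415-21612443, plus strand): gacggcgccgctagGatgaagctcgtgag
SRSF1 (chr17:58006607-58006667, minus strand): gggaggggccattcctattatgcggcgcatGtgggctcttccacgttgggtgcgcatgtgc

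Splicing genes carried a peak entry more often than protein-coding genes at large. The 18 of 55 genes came to 32.7% (exact 95% binomial interval 20.7 to 46.7%), set against 6.18% of the 20007 protein-coding genes of GENCODE v44. Counted by position instead, 18 of the 55 genes (32.7%) had a summit within 3000 bp of the start of their MANE Select transcript, the standard transcript of each gene, against 5.24% of 19061 protein-coding genes. Promoter entries were few, at 4 of 55 genes (7.27%, 2.02 to 17.6%) against 2.06% of all protein-coding genes. Intervals throughout cover counting error only, and with 1 library a group no test was made.

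The classes differed in their counts. Among SR proteins, 6 of 13 genes had an entry (46.2%, 19.2 to 74.9%): SRSF1, SRSF6, SRSF7, SRSF10, SRSF11 and TRA2B. Among hnRNPs it was 9 of 18 (50%, 26.0 to 74.0%): HNRNPA1, HNRNPA2B1, HNRNPA3, HNRNPF, HNRNPK, HNRNPL, HNRNPR, HNRNPU and PTBP1. In the spliceosome core it was 3 of 21 (14.3%, 3.05 to 36.3%): SNRPB, SNRPD1 and U2AF2. The intervals of the core and of the other classes overlap. All 4 genes with a promoter entry were hnRNPs (22.2% of 18, 6.41 to 47.6%), namely HNRNPA2B1, HNRNPF, HNRNPK and PTBP1. No SR protein gene had one (0 of 13, exact upper limit 24.7%), nor did a core gene (0 of 21, upper limit 16.1%). This difference rests in part on feature labels. The HNRNPF promoter entry had its summit 133 bp downstream of the MANE start, while a TRA2B summit at -97 bp was labelled exon and 5′ UTR. Counting summits within 1000 bp of the reference gene start instead gave 5 of 13 SR protein, 7 of 18 hnRNP and 2 of 21 core genes. By that count the core still had the lowest share.

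**Figure D1:**
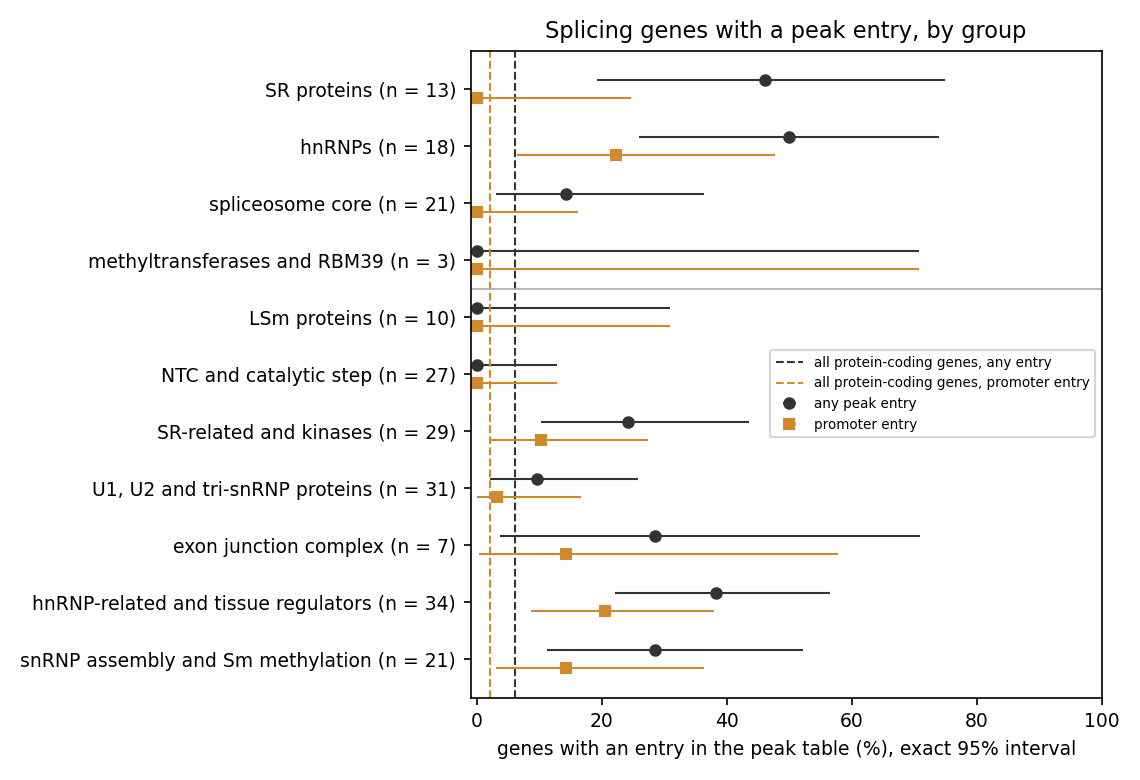
Share of genes with an entry in the peak table (x axis, percent) for the 4 classes described here, above the grey line, and for 7 lists of other splicing genes below it. Circles are any entry, squares promoter entries, bars exact 95% binomial intervals, and dashed lines the shares of all protein-coding genes (6.18% and 2.06%). SR proteins (46.2%) and hnRNPs (50%) lie farthest to the right, and the spliceosome core stands at 14.3%.

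The other 37 genes had no entry. They were the SR protein genes SRSF2, SRSF3, SRSF4, SRSF5, SRSF8, SRSF9 and TRA2A, and the hnRNP genes HNRNPA0, HNRNPAB, HNRNPC, HNRNPD, HNRNPDL, HNRNPH1, HNRNPH2, HNRNPH3 and HNRNPM. In the core they were SF3A1, SF3A2, SF3A3, SF3B1, SF3B2, SF3B3, SF3B4, U2AF1, SNRPA, SNRPA1, SNRPC, SNRPD2, SNRPD3, SNRPE, SNRPF, SNRPG, PRPF8 and PRPF19, so that every SF3 gene on the list lacked a peak. PRMT1, PRMT5 and RBM39 also lacked one (0 of 3, upper limit 70.8%). The nearest summit to any of these 37 starts was 10431 bp downstream of SRSF2, at a peak annotated to METTL23 and JMJD6, and the next was at -22457 bp from SF3A3. For PRMT5 the nearest summit was at -1185576 bp. The lowest pileup in the table was 7 fragments, so weaker enrichment at these genes would not be listed.

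Among the SR proteins, SRSF1, the founding member of the family and a known proto-oncogene, had the highest fold enrichment. Its peak at chr17:58006439-58006802 had a pileup, which counts the ChIP fragments covering the summit, of 21 (exact 95% Poisson interval 13.0 to 32.1). The fold enrichment, the pileup plus 1 over the local background plus 1, was 9.50, and the summit lay 609 bp downstream of the start. TRA2B, an SR-like activator of exon inclusion, had a pair of peaks 707 bp apart. The intron peak, at chr3:185937174-185937545, had a pileup of 19 fragments and 6.94-fold enrichment, 610 bp downstream. The peak on the start, at chr3:185938025-185938269 and annotated to exon and 5′ UTR, had a pileup of 14 fragments and 5.52-fold enrichment, with its summit at -97 bp. The Poisson intervals of these pileups overlap.

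SRSF10, which acts as a splicing repressor when dephosphorylated, had a peak at chr1:23979933-23980426 with a pileup of 21 fragments and 6.88-fold enrichment, 295 bp downstream of its start. SRSF6 showed the highest pileup of the class, 24, at chr20:43458077-43458400, 389 bp downstream. Its local background was also the highest of all 21 peaks, at 3.14 fragments, so that its fold enrichment was 6.04. The weaker peaks of this class were at SRSF11 and SRSF7. SRSF11, an SR-related protein, had a pileup of 14 fragments and 4.69-fold enrichment at chr1:70221324-70221542, 125 bp downstream of the MANE start and 15823 bp from the GENCODE gene start, the outermost start of the gene. SRSF7, an SR protein with a zinc knuckle, had the lowest fold enrichment of the 21 peaks (3.75, pileup 11 with interval 5.49 to 19.7) at chr2:38751055-38751313. Its q-value was 0.0127, the only one of the 21 above 0.001.

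HNRNPK, a KH-domain protein that binds C-rich RNA, carried the strongest hnRNP peak. The peak at chr9:83979551-83980216 had a pileup of 24 fragments (15.4 to 35.7) and 7.82-fold enrichment, 555 bp downstream of the start. A second HNRNPK peak, 973 bp away at chr9:83980547-83980835, was a promoter entry with a pileup of 15 fragments and 5.55-fold enrichment, at -418 bp. HNRNPF, which binds runs of G, also had a pair, 1208 bp apart. Its intron peak, at chr10:43407652-43407940, had a pileup of 15 fragments and 6.12-fold enrichment, 1341 bp downstream, and its promoter entry, at chr10:43408905-43409235, had the lowest pileup of the 21, 10, with a fold enrichment of 4.75. In each of the 3 genes with a pair of peaks, the peak deeper in the gene had the higher pileup, with overlapping intervals.

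The A/B-type hnRNPs, which bind exonic and intronic silencers, were represented by 3 genes. HNRNPA1 had a pileup of 16 fragments and 7.54-fold enrichment at chr12:54280875-54281329, 353 bp downstream of the start. HNRNPA3 had a pileup of 14 fragments and 7.06-fold enrichment at chr2:177213044-177213449, 472 bp downstream. HNRNPA2B1 differed in position, since its summit lay at -1478 bp from the MANE start and at -695 bp from the start the table uses. That peak, at chr7:26202017-26202332, had a pileup of 17 fragments and 5.63.-fold enrichment

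PTBP1, which binds polypyrimidine tracts and represses exons, had the highest fold enrichment of the 4 promoter entries. Its peak at chr19:796953-797191 had a pileup of 15 fragments, 7.36-fold enrichment and its summit at -433 bp from the MANE start, which is -56 bp from the start in the table. HNRNPU, also known as scaffold attachment factor A, had its peak 1497 bp downstream of the MANE start, the farthest by that measure, at chr1:244862922-244863313, with a pileup of 18 fragments and 7.10.-fold enrichment HNRNPL, which binds CA-rich RNA, and HNRNPR shared the same values, a pileup of 11 fragments and 4.67.-fold enrichment Their peaks were at chr19:38849251-38849476, 637 bp downstream of the MANE start, and chr1:23343801-23344322, 342 bp downstream. From the start in the table the HNRNPL summit was 2998 bp away.

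Of the spliceosome core, SNRPD1, which encodes the Sm protein SmD1, ranked first of the 21 peaks by fold enrichment. At chr18:21612210-21612649 its pileup was 23 (14.6 to 34.5) and its fold enrichment 9.85, rank 49 of the 1900 peaks, and the summit fell in exon 1, 115 bp downstream of the start. SNRPB, which encodes the Sm proteins B and B′, had a pileup of 11 fragments and 5.54-fold enrichment at chr20:2470109-2470318, 600 bp downstream. U2AF2, the U2AF subunit that binds the polypyrimidine tract, had a pileup of 11 fragments and 5.25-fold enrichment at chr19:55655290-55655492, 356 bp downstream. The other Sm genes on the list, SNRPD2, SNRPD3, SNRPE, SNRPF and SNRPG, had no entry, and neither did U2AF1, the partner of U2AF2.

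**Figure D2:**
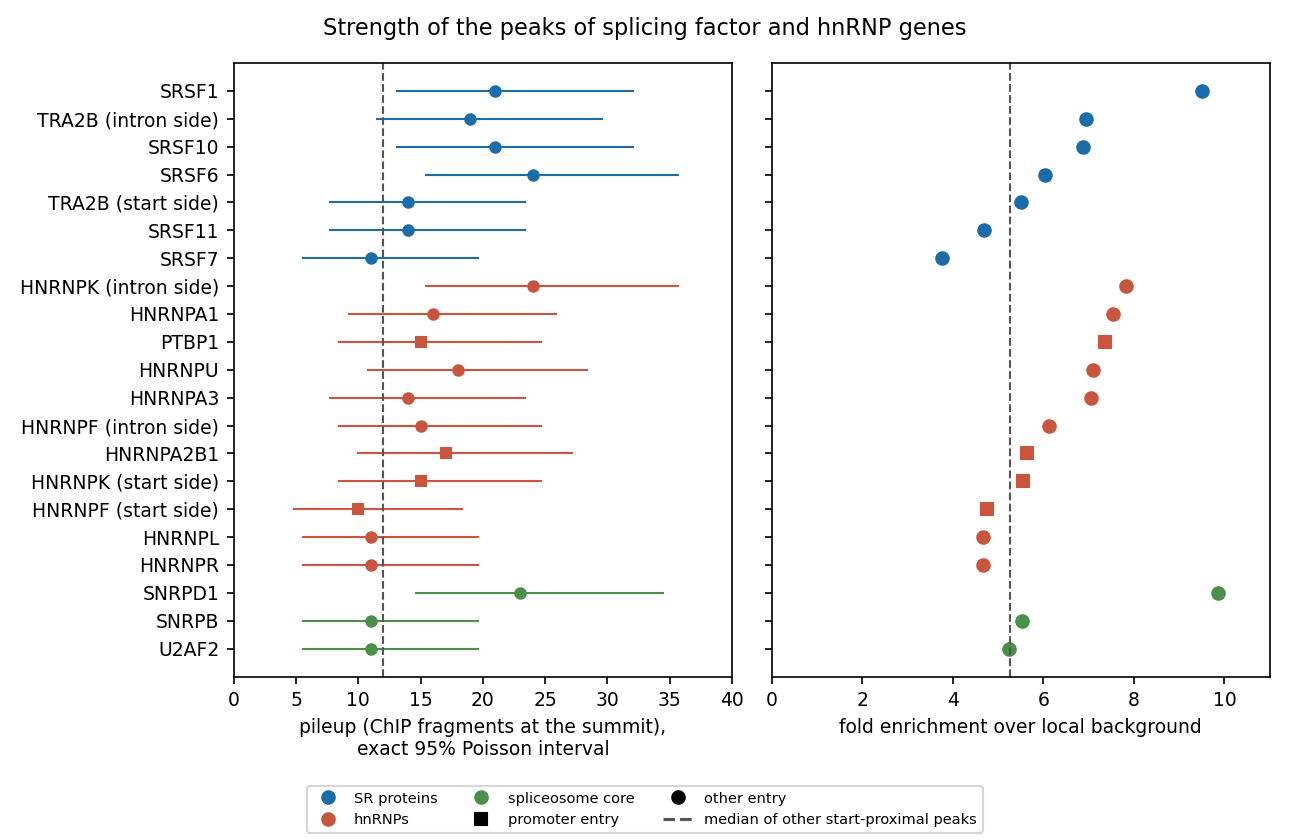
Pileup with exact 95% Poisson intervals (left) and fold enrichment over the local background (right) for each of the 21 peaks, coloured by class, with squares for promoter entries and dashed lines at the medians of the other peaks near protein-coding starts (12 and 5.26). SNRPD1 (9.85) and SRSF1 (9.50) stand to the right in fold enrichment, and SRSF7 (3.75) lies lowest.

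As a group, the 21 peaks had higher values than the other peaks near genes. Their median pileup was 15 (10 to 24), and that of the 875 other peaks within 3000 bp of a protein-coding start was 12. The median fold enrichment was 6.04 against 5.26, the median -log10 q 6.41 against 4.42, and the median length 324 bp against 264 bp. The median local background was also higher, 1.62 fragments against 1.44. By fold enrichment 16 of the 21 ranked in the upper 950 of all 1900 peaks, 5 in the top 200 and 2 in the top 100. The median rank by fold enrichment was 475 for the 21 and 830.5 for the 875 others, which also lies in the upper 950. How many of the 875 reached the top 200 or 100 was not counted. The median fold enrichment was 6.04 for SR proteins, 6.12 for hnRNPs and 5.54 for the 3 core peaks. In other values the 3 core peaks were below the 875 others, with a median pileup of 11 against 12. Their median -log10 q was 4.33 against 4.42, and their median length 210 bp against 264 bp. The 4 promoter entries alone had a median of 5.59 and a median rank by q-value of 188 among 576 promoter peaks.

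These peaks lay mostly inside the first intron of the MANE Select transcript. The table placed 15 of the 21 in an intron, 4 in a promoter and 2 in exon and 5′ UTR. All 15 intron entries lay within 2000 bp of the MANE start, compared with 270 of 558 intron entries (48.4%) of other protein-coding genes. From the GENCODE gene start it was 13 of 15 (86.7%, 59.5 to 98.3%), without SRSF11 and HNRNPL, against 36.0% of the 558. The 2 sets were not matched for gene or intron length, which limits how far an intron entry can lie from the start. Of the 18 genes with an entry, 13 had an intron entry and no promoter entry (72.2%, 46.5 to 90.3%), against 513 of 1208 other protein-coding genes with an entry (42.5%). Placed on the MANE Select transcripts, 15 summits fell in intron 1, 2 in exon 1 (SNRPD1 and SRSF11) and 4 upstream of the start (TRA2B, HNRNPK, HNRNPA2B1 and PTBP1).

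Measured from the MANE start, the median summit was 353 bp downstream, with a range from -1478 to 1497 bp. From the GENCODE gene start the median was 664 bp (-695 to 15823 bp), and from the start in the table, given for 18 of the peaks, it was 529 bp (-695 to 2998 bp). By the MANE start, over 100 bp downstream lay 17 of the 21 summits (81.0%, 58.1 to 94.6%). Of the 875 other peaks near protein-coding starts, 283 did (32.3%, 29.3 to 35.6%), and their median was -16 bp. Measuring both sets from the nearest protein-coding MANE start gave 18 of 21 (85.7%). The contrast was smaller from GENCODE gene starts. There 17 of the 21 (81.0%, 58.1 to 94.6%) lay over 100 bp downstream of the start of their own gene. Of the 875 other peaks, 492 did (56.2%, 52.9 to 59.5%), measured from the gene with the nearest MANE start, and their median was 192 bp. These intervals overlap. With the 21 also measured from the gene with the nearest MANE start, 18 did (85.7%, 63.7 to 97.0%), and the intervals do not overlap. By the MANE start the median was 295 bp for the 7 SR protein peaks, 353 bp for the 11 hnRNP peaks and 356 bp for the 3 core peaks. No summit of the 21 lay between 0 and 100 bp downstream of the MANE start (upper limit 16.1%), where 14.2% of the other peaks lay. The median GC content within 100 bp of the summit was 66.2%, against 70.1% for the other peaks near starts.

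**Figure D3:**
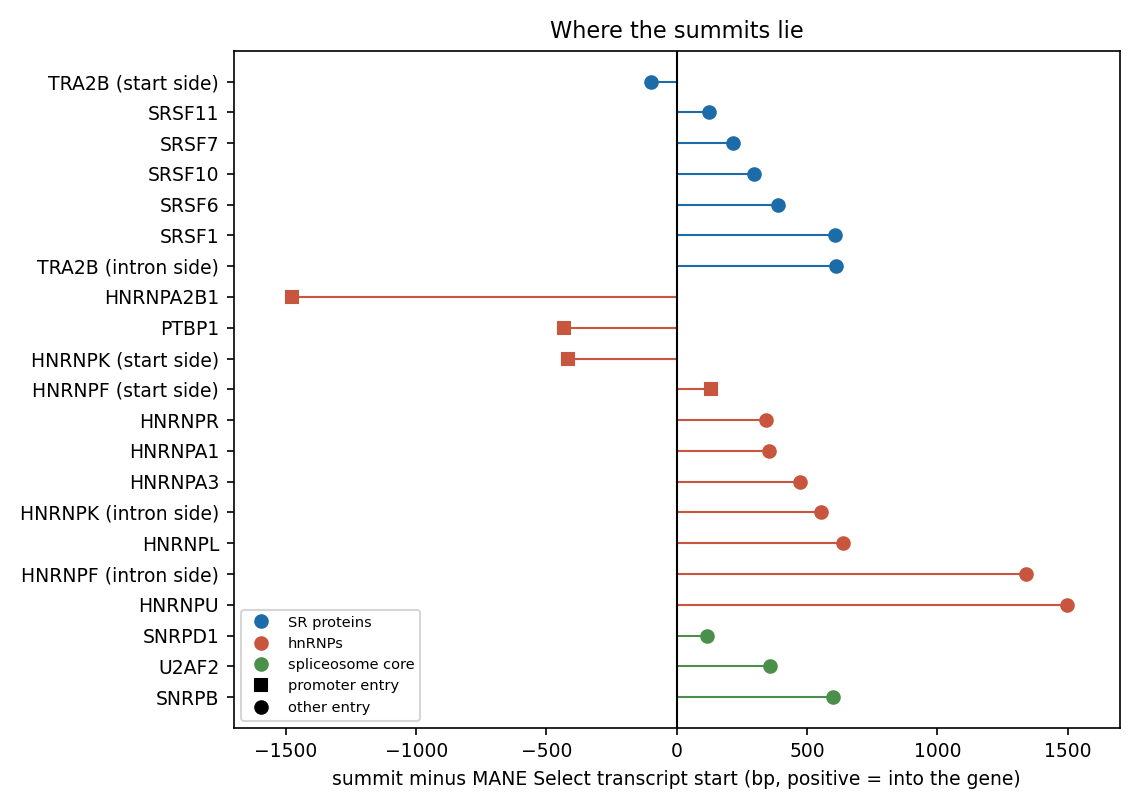
Position of each of the 21 summits relative to the MANE Select start (x axis, bp, negative upstream), by gene and class. Of the 21 summits, 17 lie over 100 bp downstream, and HNRNPA2B1 (-1478 bp) and HNRNPU (1497 bp) mark the ends of the range.

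**Figure D4:**
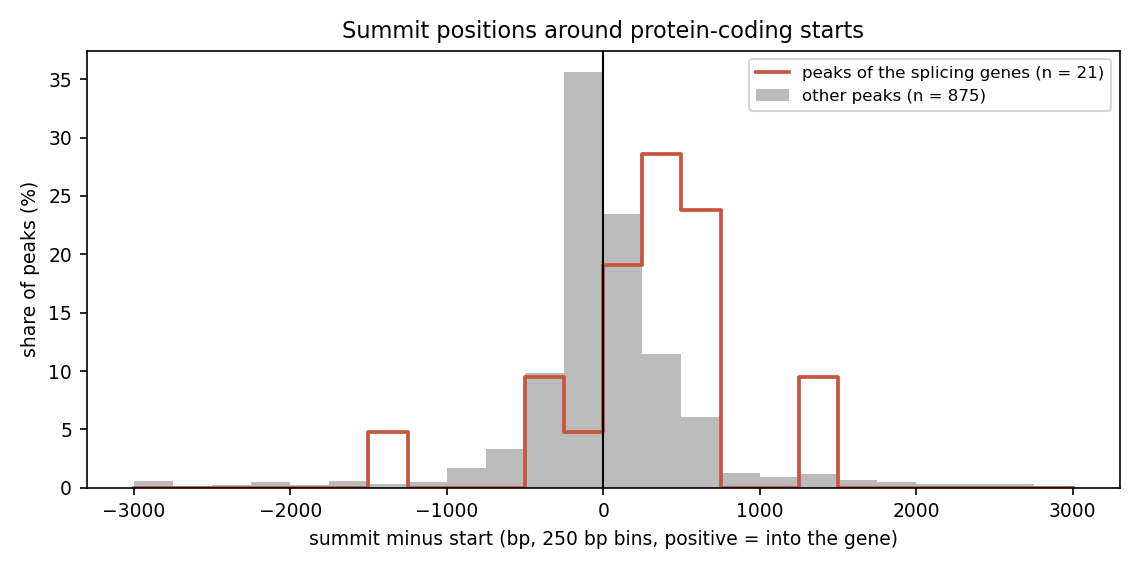
Distribution of summit distances from the start (bp, negative upstream) for the 21 peaks of splicing factor and hnRNP genes and for the 875 other peaks within 3000 bp of a protein-coding start. Distances are from the MANE Select start of the gene itself for the 21, and from the nearest protein-coding MANE Select start for the others. The medians are 353 bp for the splicing gene peaks and -16 bp for the others (664 and 192 bp from GENCODE gene starts). Measured from the nearest gene like the others, the 21 have medians of 356 bp (MANE) and 699 bp (GENCODE).

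Several of the peaks were shared with a neighbouring gene. In 10 of the 21 peaks the table also named another gene, and in 8 it gave that gene a promoter entry. Shared entries were not counted in the other peaks near starts, so these counts have no background beside them. HNRNPA1 and CBX5, which encodes the heterochromatin protein HP1 alpha, are transcribed away from each other from starts 604 bp apart, and the peak 353 bp inside HNRNPA1 lay at -957 bp from CBX5. HNRNPA2B1 and CBX3, which encodes HP1 gamma, have the same arrangement with starts 999 bp apart, and there the summit lay 479 bp inside CBX3. HNRNPK faces RMI1 in this way too, with starts 590 bp apart, and its peaks lay at -1145 and -172 bp from RMI1. At SRSF7 the promoter entry was that of GEMIN6, with the summit at -390 bp from the GENCODE start of GEMIN6 and at -27066 bp from its MANE start. At SRSF1, SRSF11, HNRNPU and HNRNPA3 the promoter entry belonged to a gene named only by a clone identifier, AC015813.2 and AC015813.5 in the case of SRSF1. Which gene a shared peak serves was not tested.

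The E-boxes printed above lay between 8.5 and 51.5 bp from the summit, with a median of 31.5 bp. CACGTG, which reads the same on both strands, was present in 4 of the 21 peaks (19.0%, 5.45 to 41.9%), against 26.5% of the other peaks near starts. GGGCGG, searched on both strands, was present in 16 of 21 (76.2%, 52.8 to 91.8%) against 69.7%. The longer GGGGCGGGG, which contains GGGCGG, was present in 4 of 21 (19.0%) against 20.8%. For all 3 motifs the share of the other peaks lay inside the interval of the splicing gene peaks. SRSF6, U2AF2, HNRNPU and the intron peak of HNRNPF held both CACGTG and GGGCGG.

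The sequence under these peaks was nearly all unique in the genome. In 19 of the 21 peaks every 31-base word occurred at 1 place only. The exceptions were SRSF6, where 30 of 294 words (10.2%) occurred at 2 places, and the promoter peak of HNRNPK, where 5 of 259 did. None of the 21 lay in a dense cluster of at least 5 peaks with neighbours within 100 kb. Of all 1900 peaks, 1562 lay outside such clusters. Repeated words were not counted in the other peaks.

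Splicing genes outside the 55 were taken from 7 further lists of 159 genes. Of these, 31 had an entry (19.5%, 13.6 to 26.5%) and 15 a promoter entry (9.43%, 5.38 to 15.1%), beside the background of 6.18% and 2.06%. Relatives and tissue-specific regulators of the hnRNP kind had the highest share, 13 of 34 (38.2%), while LSm proteins (0 of 10, upper limit 30.8%) and the NTC and catalytic-step proteins (0 of 27, upper limit 12.8%) had none. Promoter entries in the hnRNP-related list were those of FUBP1 (fold enrichment 5.08), ESRP2 (4.16), KHSRP (4.96), HNRNPUL1 (4.59), PCBP1 (4.92), RALY (5.24) and SYNCRIP (5.55 and 6.65). SR-related promoter entries were RBM15 (6.23), SUGP2 (4.83) and SON (7.54). The rest were PRPF6 (7.63 and 4.97), EIF4A3 of the exon junction complex (4.56), the methyltransferase CARM1 (6.41), and GEMIN5 (3.89) and GEMIN6 (3.75 for the peak it shares with SRSF7) of the snRNP assembly machinery. Of the 36 peaks of the 31 genes, 33 lay within 3000 bp of a protein-coding start and were not among the 21. These 33 lay mainly upstream of the nearest protein-coding MANE start, in 23 cases (69.7%, 51.3 to 84.4%), and over 100 bp downstream in 6 (18.2%, 6.98 to 35.5%). These intervals do not overlap those of the 21 peaks measured in the same way, 3 of 21 upstream (14.3%, 3.05 to 36.3%) and 18 of 21 downstream (63.7 to 97.0%). From GENCODE gene starts they do overlap, with 11 of 33 peaks of the other splicing genes upstream (33.3%, 18.0 to 51.8%) and 17 of 33 over 100 bp downstream (51.5%, 33.5 to 69.2%), beside the same 3 and 18 of 21. The side of the start was compared after the data had been seen. In 3 genes a pair of peaks was counted as separate, so the intervals are a description and not a test.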

How the data were processed

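Chromatin from CAL27 cells expressing myc-KLF7 gave 1 anti-MYC ChIP library and 1 input library. The authors trimmed reads with Trimmomatic, mapped them with BWA, removed duplicates with Samtools and called peaks with MACS2 at a q-value of 0.05. Per the labels the build is hg38, and the annotation release is not given in the sources used here. The deposited pileup, a signal, counts ChIP fragments covering each summit, and the fold enrichment is a ratio, pileup plus 1 over local background plus 1. The -log10 q that the authors deposited comes from the Poisson model of MACS2, and the -log10 p was not used. The table gives no read totals, so the depth of the libraries is unknown, and the precision is that of the pileups.

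Genes were matched by exact symbol, and all 55 genes were found in GENCODE v44. Gene starts in the table count from 0 and were shifted by 1. Distances used MANE Select starts. Both strands of GRCh38 were searched for motifs up to 100 bp either side of each summit. Promoters were RefSeq windows from 250 bases before to 50 after the start (GRCh38.p14), which 49 of the 55 genes matched. Binomial and Poisson intervals are exact 95% intervals. With 1 library a group no test across conditions was possible. The counting steps were tested on simulated data.

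The members and lists were chosen with earlier results of these data known. Every member with a peak was named with its values, every other member by name only, other splicing genes where they had a promoter entry, and neighbours where they shared a peak. Because promoter entries were only 4, the description was extended to all 21 peaks, their side of the start and 12 further sequence words after the data had been seen. Alternatives covered q-value, fold enrichment and pileup thresholds, the nearest-gene column, dense clusters left out, other starts and other windows. Python 3.11.15 was used with numpy 2.4.6, pandas 2.3.3, scipy 1.17.1, pysam 0.24.0, numba 0.67.0 and matplotlib 3.10.9.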

Additional observations from a re-analysis of the deposited data

How the results depend on the processing

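Of 71 alternative values for 18 results, 58 stayed within 1.5 times the value given or within its spread and 13 moved. Part of the 58 could not have moved. Promoter entries of SR protein and core genes numbered 0, and a filter that only removes entries leaves 0. None of the 21 peaks lay in a dense cluster, and all 21 had a pileup of at least 10. Leaving out clusters or lower pileups thus could not alter the counts of genes with these peaks. The figure of 58 therefore overstates how far the results were tested. Of the 18 genes with an entry, 17 were left at a q-value under 0.01 or under 0.001 (without SRSF7), 14 at a fold enrichment of at least 5 (without SRSF7, SRSF11, HNRNPL and HNRNPR) and 15 by the nearest-gene column (without SRSF1, SRSF11 and HNRNPA3). Counting a summit within 1000 bp of the reference gene start in place of a promoter entry gave 14 genes rather than 4, with 5 SR protein, 7 hnRNP and 2 core genes, and 27 rather than 15 of the other splicing genes. The share of all protein-coding genes by this 1000 bp rule was not computed, so the rise has no background beside it. Of the 15 other splicing genes with a promoter entry, 7 were left at a fold enrichment of at least 5. The median rank of the 4 promoter peaks was 734.5 among all peaks, rather than 188 among promoter peaks. In these 4 peaks CACGTG was found in 0 within 100 bp, and in 1 within 200 bp or in the whole peak. GGGGCGGGG was found in 1 within 100 bp, in 0 within 50 bp, and in 2 within 200 bp or in the whole peak. Alternatives for the side of the start were added after seeing the data. Summits over 100 bp downstream numbered 16 to 18 of 21 from the GENCODE gene start, the nearest MANE start or the peak midpoint, and 14 of 18 from the start in the table. The median distance was 664 bp from the GENCODE gene start and 529 bp from the start in the table, rather than 353 bp. Of the 875 other peaks near starts, 492 rather than 283 lay over 100 bp downstream from the GENCODE gene start, so the contrast with the splicing genes depends on which start is used. No paired analysis was possible because each group held 1 library. Pileups of 10 to 24 fragments limit what can be ranked among these peaks, since the Poisson intervals of all 21 overlap.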

Other observations

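Beyond CACGTG and the GC boxes, 12 further words were looked at under the 21 peaks, so the values here were chosen after they had been seen and are a description only. CACGCG was found up to 100 bp either side of the summit in 11 of the 21 peaks (52.4%, exact 95% interval 29.8 to 74.3%), against 27.7% of the other peaks near protein-coding starts. The 11 peaks were those of SRSF6, SRSF7, SRSF10, TRA2B, HNRNPA1, HNRNPA2B1, HNRNPL, and both peaks each of HNRNPF and HNRNPK. CATGCG was present in 5 of 21 (23.8%, 8.22 to 47.2%) against 10.1%, and CACGAG in 6 of 21 (28.6%, 11.3 to 52.2%) against 13.3%, both with the share of the other peaks inside the interval. Other words had the opposite order, also inside the interval: CCAAT was present in 1 of 21 (4.76%, 0.12 to 23.8%) against 14.3%, and CCGGAA in 3 of 21 (14.3%, 3.05 to 36.3%) against 22.3%. CACGTG or CACGCG was present in 13 of 21 (61.9%) against 48.1%, and CACATG in 2 of 21 (9.52%) against 10.6%.

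In the RefSeq promoters, CACGTG was present in 7 of the 49 matched promoters (14.3%, 5.94 to 27.2%), against 8.89% of 15345 protein-coding promoters, and 6 of the 7 belonged to genes without a peak entry (SF3B1, HNRNPD, HNRNPDL, HNRNPH2, HNRNPH3 and HNRNPM). The seventh was HNRNPA3, so that 1 of 16 promoters of genes with an entry held it (6.25%, 0.158 to 30.2%) and 6 of 33 of those without (18.2%, 6.98 to 35.5%), with overlapping intervals. GGGGCGGGG was present in 8 of 16 promoters of genes with an entry (50%, 24.7 to 75.3%) and 4 of 33 of those without (12.1%, 3.40 to 28.2%), against 22.8% of all. These intervals overlap, and a match is a run of letters, not a bound site.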
